A study of Mus musculus with 27 samples.

Results

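Genes that encode neuropeptides or mark interneurons, 10 in number, were followed in single-nucleus RNA-seq libraries of the mouse hippocampus: Sst, Vip, Npy, Cck, Pvalb, Tac1, Penk, Pdyn, Crh and Cort. They were chosen by gene symbol, without regard to their values, and are 10 of the 31053 genes counted in every library. Each of the 27 libraries came from 1 mouse, and levels are given as CPM, counts per 1e6, here the UMIs of a gene (individual captured RNA molecules) relative to all UMIs of a named set of nuclei in 1 mouse. The study asked how tau pathology and loss of Cgas, which encodes a sensor of DNA in the cytosol, act on the hippocampus. The labels combine the P301S tau transgene (a dementia-linked form of human tau under the mouse Prnp promoter) with the Cgas genotype. Non-transgenic mice were 3 male and 2 female Cgas+/+ animals, 2 male Cgas+/- animals and another 2 males labelled Cgas-/-. Among transgenic mice, 3 of each sex were P301S Cgas+/+, as many P301S Cgas+/- and as many P301S Cgas-/-. The labels give no age and no treatment.

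Neuropeptides are made as longer precursors, cut by proprotein convertases, packed into dense-core vesicles and released mostly under strong firing, after which they act on G protein-coupled receptors over a wider space than a classical transmitter. In the hippocampus and cortex their genes divide the GABAergic interneurons into families. Sst marks cells that inhibit dendrites, Pvalb (a calcium buffer, not a peptide) marks fast-spiking basket and axo-axonic cells, Vip marks cells that mostly inhibit other interneurons, and Cck marks a further basket cell type. Excitatory cells use some of the same peptides, such as dynorphin in the mossy fibres of dentate granule cells, and the striatum uses Tac1 and Pdyn in 1 projection pathway and Penk in the other.

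The files held 241938 barcodes, and 204852 nuclei were kept after filters on genes, mitochondrial UMIs and doublets, 5840 to 12572 per library. Total counts ran from 46091490 to 79484316 UMIs per library, and the median per kept nucleus ran from 2025.5 to 7538.5 UMIs. The group mean of that median was lowest in P301S Cgas+/+, at 3523 ± 827 UMIs (SD, n = 6), against 5515 ± 1690 in Cgas+/+ (n = 5), 5071 ± 558 in P301S Cgas+/- (n = 6) and 4703 ± 1229 in P301S Cgas-/- (n = 6). Nuclei were clustered and named without any of the 10 genes, from other markers. Inhibitory neuron-like clusters held 12403 nuclei, of which 2978 were Sst-like, 3265 Pvalb-like, 1898 Vip-like, 1933 Lamp5-like and 925 Sncg-like (a Cck basket cell type). Any pair of libraries shared 8 to 48 cell barcodes. Cgas itself followed the genotype labels in only some comparisons. In microglia-like nuclei it averaged 51.4 ± 7.02 CPM in libraries labelled P301S Cgas-/-, 42.7 ± 11.2 CPM in P301S Cgas+/- and 37.9 ± 11.6 CPM in P301S Cgas+/+ (SD, n = 6 each), the reverse of the labels. Without the transgene it was lower in Cgas-/- (27.3 CPM) and Cgas+/- (19.1 CPM, 2 mice each) than in Cgas+/+ (35.4 ± 2.41 CPM, n = 5). Over all kept nuclei it averaged 1.89 ± 0.555 CPM in P301S Cgas-/- and 2.24 ± 0.834 CPM in P301S Cgas+/+, which overlapped, and without the transgene 1.94 CPM in Cgas-/-, 1.52 CPM in Cgas+/- and 1.51 CPM in Cgas+/+. Counts taken at the 3′ end may lie outside the deleted part, which the sources used here do not give, so group names below are those of the labels.

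Libraries also differed in how much tissue next to the hippocampus they held. The share of cortical-like nuclei among named excitatory nuclei averaged 26.0% (2.22% to 70.4%) in P301S Cgas+/+, 48.4% (29.4% to 84.5%) in P301S Cgas+/-, 54.5% (28.9% to 87.2%) in P301S Cgas-/-, 32.7% (10.1% to 61.9%) in Cgas+/+, 21.0% in Cgas+/- and 5.08% in Cgas-/-. Replicate 1 of P301S Cgas+/- gave 52.8% of all 3804 striatal projection neuron-like nuclei. Replicate 3 of P301S Cgas+/+ had 51.1% of its nuclei in unnamed clusters and only 115 inhibitory nuclei, 10 of them Sst-like. Leaving both libraries out changed no call on the 10 genes, and striatal values that rest on the first are given with and without it.

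All 10 genes were matched by identifier to the GENCODE vM21 annotation of GRCm38, and their positions are given with the levels. Promoters of 8 of them, 250 bases before to 50 after the RefSeq start (GRCm38.p6), were searched on both strands for the cAMP response element TGACGTCA, the textbook site through which activity-dependent signalling drives Sst, and for its shorter form TGACG, which the full site contains. Penk and Crh had no promoter entry in the reference used and were not searched. The full element is in 1.79% of 32851 such promoters and, among the 8 genes searched, in that of Sst alone. The shorter form is in 20.8% of promoters and in 5 of the 8 (Sst, Vip, Cck, Tac1, Cort), and neither was found in those of Npy, Pvalb and Pdyn. Tac1 has 2 such sites, of which the one nearest the start is shown. The stretches around the sites are shown because they set these 5 genes side by side at one base-level feature. Capitals mark the site, read 5′ to 3′ on the gene's strand, where CGTCA is TGACG on the other strand.
Sst, chr16:23890863-23890914, minus strand, site ending 40 bases before the start: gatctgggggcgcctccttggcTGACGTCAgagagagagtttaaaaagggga
Vip, chr10:5639117-5639165, plus strand, 74 bases before the start: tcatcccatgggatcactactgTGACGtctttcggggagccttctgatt
Cck, chr9:121495715-121495763, minus strand, 42 bases before the start: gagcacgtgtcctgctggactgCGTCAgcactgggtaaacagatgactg
Tac1, chr6:7554996-7555044, plus strand, 38 bases before the start: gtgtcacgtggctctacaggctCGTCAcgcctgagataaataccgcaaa
Cort, chr4:149126755-149126803, minus strand, 13 bases before the start: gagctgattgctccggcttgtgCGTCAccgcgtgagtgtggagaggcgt
For Sst and Tac1 the RefSeq starts used here lie downstream of the GENCODE starts, so their stretches lie within the gene spans given with the levels. These matches are letters in a window and say nothing of use in these nuclei.

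Sst (ENSMUSG00000004366, chromosome 16, 23889573 to 23890958, minus strand) encodes somatostatin, an inhibitory peptide that slows release. It gave 8556 UMIs in the kept nuclei, 77.7% of them in inhibitory nuclei. Orders of level were tested over named sets outside the striatum, and striatal-like nuclei are given apart from them. The mean of Sst was 230.1 CPM in Sst-like and 23.2 CPM in Pvalb-like nuclei, and it was higher in the former in 27 of 27 mice (log2 difference 3.57 ± 1.20, SD, adjusted permutation p = 0.000271). A UMI of it was seen in 63.7% of Sst-like nuclei (95% exact interval 62.0% to 65.5%) and in 0.961% of oligodendrocyte-like nuclei, which should lack the gene, at median depths of 8393.5 and 1914 UMIs. With every nucleus thinned to 1000 UMIs the shares were 17.1% and 0.516%. The 5.11 CPM of Sst in oligodendrocyte-like nuclei was read as background from free RNA.

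Cort (ENSMUSG00000028971, chromosome 4, 149125034 to 149126763, minus strand) encodes cortistatin, a relative of somatostatin that binds the same receptors. It was sparse, with 716 UMIs in all. It averaged 4.82 CPM in Pvalb-like and 4.09 CPM in Sst-like nuclei, levels that were not separated (adjusted permutation p = 0.798), and Sst-like nuclei lay above Vip-like nuclei at 1.57 CPM (adjusted p = 0.000691, higher in 19 of 27 mice). Excitatory nuclei held 36.9% of its UMIs, at a mean of 0.391 CPM. Dentate granule-like nuclei averaged 0.65 CPM, with a median of 0.40 CPM and 1 mouse at 5.90 CPM. Cortical deep layer-like nuclei averaged 0.62 CPM, and the other excitatory subtypes less. Oligodendrocyte-like, astrocyte-like and oligodendrocyte progenitor-like nuclei held 0.348, 0.403 and 0.968 CPM. By CPM the levels in excitatory nuclei lie around these, and the part of free RNA in them was not tested.

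Npy (ENSMUSG00000029819, chromosome 6, 49822710 to 49829507, plus strand) encodes neuropeptide Y, which damps glutamate release. It was led by a pair of subtypes, 29.7 CPM in Lamp5-like and 27.8 CPM in Sst-like nuclei (adjusted permutation p = 0.913), ahead of Sncg-like nuclei at 7.99 CPM (Sst-like against Sncg-like, adjusted p = 0.00142) and Pvalb-like nuclei at 5.58 CPM. In Vip-like nuclei it was 1.18 CPM, close to the 1.05 CPM of oligodendrocyte-like nuclei.

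Vip (ENSMUSG00000019772, chromosome 10, 5639218 to 5647617, plus strand) encodes vasoactive intestinal peptide, and Crh (ENSMUSG00000049796, chromosome 3, 19693401 to 19695396, minus strand) encodes corticotropin-releasing hormone, the stress peptide. Both were highest among interneurons in Vip-like nuclei. Vip averaged 296.2 CPM there and 33.5 CPM in Sncg-like nuclei, higher in the former in 26 of 26 mice (adjusted permutation p = 0.000271), and Sncg-like nuclei in turn were above mural-like nuclei at 3.40 CPM in 19 of 24 mice (adjusted p = 0.000271). A Vip UMI was seen in 61.6% of Vip-like against 0.347% of oligodendrocyte-like nuclei (23.8% and 0.181% when thinned, median depths 6140.5 and 1914 UMIs). Crh, with 287 UMIs in all, averaged 11.9 CPM in Vip-like and 1.62 CPM in Sst-like nuclei and was higher in the former in 26 of 27 mice (adjusted p = 0.000271). In striatal Drd1 type-like nuclei Crh averaged 12.9 CPM over 5 mice, from 7 UMIs, with 3 of the mice at 0. Of these, 6 UMIs came from 1 Cgas+/- mouse with 14 such nuclei, and the mean was 0.040 CPM without it.

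Penk (ENSMUSG00000045573, chromosome 4, 4133531 to 4138819, minus strand) encodes the precursor of the enkephalins, opioid peptides that act mostly on delta and mu receptors. Among interneurons it was also a gene of Vip-like nuclei, at 39.1 CPM, with 0.919 CPM in Pvalb-like, 0.838 CPM in Sst-like, 0.499 CPM in Lamp5-like and 0.105 CPM in Sncg-like nuclei, the last from 3 UMIs of 1 mouse. Outside the striatum, the set next in order was Cajal-Retzius-like nuclei at 8.16 CPM, which rests on 11 UMIs and was 5.91 CPM without replicate 3 of P301S Cgas+/+ (Vip-like higher in 18 of 20 mice, adjusted permutation p = 0.000271). CA1-like nuclei followed at 2.65 CPM. Among striatal nuclei, Drd2 type-like nuclei held 219.1 CPM over the 4 mice with at least 10 such nuclei, and 72.3% of all such nuclei came from replicate 1 of P301S Cgas+/-. Penk was 150.4 CPM in that library and 202, 237 and 287 CPM in the other 3, whose mean was 242 CPM. Penk averaged 26.5 CPM in Drd1 type-like nuclei (5 mice, median 12.4, 2 at 0) and 27.3 CPM without that library. Its highest value, 96.6 CPM, was 9 UMIs in 14 nuclei of 1 Cgas+/- mouse, without which the mean was 8.91 CPM. In all striatal projection neuron-like nuclei it averaged 25.2 CPM (21 mice) and 24.4 CPM without replicate 1 of P301S Cgas+/-.

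Cck (ENSMUSG00000032532, chromosome 9, 121489824 to 121495694, minus strand) encodes cholecystokinin and was the only one of the 10 with most UMIs in excitatory nuclei, 68.0% of 23515 against 11.7% in inhibitory nuclei. Per nucleus set it was still highest in Sncg-like interneurons, at 136.5 CPM, above cortical upper layer-like nuclei at 49.5 CPM in 24 of 24 mice (adjusted permutation p = 0.000271). Among excitatory subtypes it stood at 38.3 CPM in CA2-like, 32.3 in CA1-like, 22.5 in CA3-like, 10.1 in dentate granule-like and 8.74 CPM in cortical deep layer-like nuclei. The steps from cortical upper layer-like to CA2-like and from CA2-like to CA1-like nuclei did not exceed their spread (adjusted p = 0.853 and 1, 8 mice), and CA1-like nuclei were above Lamp5-like interneurons at 24.6 CPM (adjusted p = 0.0142). Oligodendrocyte-like, astrocyte-like and oligodendrocyte progenitor-like nuclei held 13.0, 7.53 and 6.81 CPM. The levels in dentate granule-like and cortical deep layer-like nuclei lie among these. A Cck UMI was seen in 7.89% of dentate granule-like and 2.50% of oligodendrocyte-like nuclei, at median depths of 7929 and 1914 UMIs. When thinned, the shares were 1.01% and 1.32%. The part of free RNA in these levels was not tested.

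Pvalb (ENSMUSG00000005716, chromosome 15, 78191114 to 78206400, minus strand) and Tac1 (ENSMUSG00000061762, chromosome 6, 7554879 to 7565834, plus strand), which encodes the precursor of substance P, were both highest among interneurons in Pvalb-like nuclei. Pvalb averaged 41.1 CPM there. The next set outside the striatum was ependymal-like nuclei at 12.6 CPM, from 30 UMIs (Pvalb-like higher in 18 of 19 mice, adjusted permutation p = 0.000475), followed by Sst-like nuclei at 3.11 CPM. Striatal projection neuron-like nuclei held 6.88 CPM of Pvalb over 21 mice, from 44 UMIs, with 11 mice at 0. Replicate 2 of P301S Cgas+/+ was at 73.5 CPM (15 UMIs in 40 nuclei), and the mean was 3.55 CPM without it. Tac1 averaged 20.5 CPM in Pvalb-like nuclei and 1.41 CPM in mural-like nuclei (3 UMIs, 2 of them in 1 mouse, 0.535 CPM without it), the next named set outside the striatum (adjusted p = 0.000271, higher in 23 of 24 mice). Striatal Drd1 type-like nuclei held 67.9 CPM of Tac1 over 5 mice, with 94.5 CPM in replicate 1 of P301S Cgas+/- and 44.0, 53.7, 72.7 and 74.4 CPM in the other 4. Without that library the mean was 61.2 CPM. Of all 1675 Tac1 UMIs, 44.5% were striatal, but that library held 792 of them, and without it 11.4% of 883 were.

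Pdyn (ENSMUSG00000027400, chromosome 2, 129686565 to 129699844, minus strand) encodes the precursor of the dynorphins, opioid peptides of the kappa receptor. It had 3 main sources. Dentate granule-like nuclei gave 819 of its 2054 UMIs at 4.63 CPM, Sst-like nuclei 435 UMIs at 15.7 CPM, and striatal Drd1 type-like nuclei 373 UMIs at 53.2 CPM (5 mice, 50.2 CPM in replicate 1 of P301S Cgas+/- and 0, 35.2, 75.2 and 105 CPM in the others). Without that library the Drd1 type-like nuclei gave 62 UMIs at a mean of 53.9 CPM. Sst-like nuclei were above dentate granule-like nuclei in 19 of 27 mice, a step that did not pass the adjustment (p = 0.0327, adjusted permutation p = 0.222), and dentate granule-like nuclei were above astrocyte-like nuclei at 1.34 CPM (adjusted p = 0.00057). A Pdyn UMI was seen in 3.78% of dentate granule-like, 8.76% of Sst-like and 0.127% of oligodendrocyte-like nuclei (0.486%, 1.81% and 0.069% when thinned). Over all 10 genes, 19 of 190 neighbouring steps in the orders of level passed an adjusted p of 0.05, and 1e-05 is the smallest p that these permutations can give. Of the 19, 17 ran in the order of the mean CPM. The other 2 ran against it on the log2(CPM + 1) scale that was tested, both for Sst, at mean levels of at most 5.69 CPM: endothelial-like against oligodendrocyte-like nuclei (higher in 5 of 23 mice) and ependymal-like against CA3-like nuclei (higher in 0 of 17). Sst had 6 UMIs in endothelial-like and 1 in ependymal-like nuclei, with 17 of 23 and 18 of 19 mice at 0. Neighbours were set by the means of the same mice, so agreement with that order is largely built in.

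**Figure D1:**
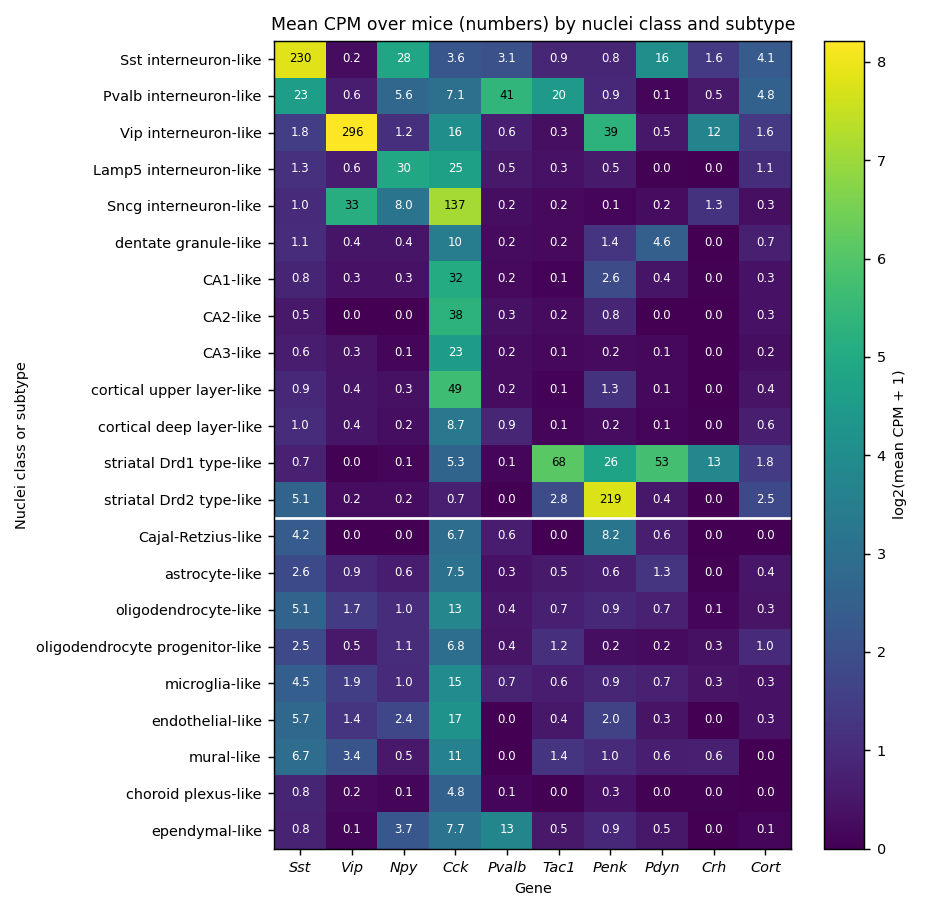
Mean CPM over mice of the 10 genes (columns) in each named set of nuclei (rows), with the value in each cell and colour on a log2(CPM + 1) scale. The white line separates the neuron subtypes from the classes below it, which include the Cajal-Retzius-like neurons. Sst (230 CPM) and Vip (296 CPM) stand out in the interneurons named after them, Cck (137 CPM) in Sncg-like interneurons, and Tac1, Penk and Pdyn in striatal-like nuclei.

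Inhibitory nuclei were split further into 26 subclusters, again without the 10 genes, and the levels there are given as a description of UMIs summed over libraries. Npy was concentrated in a small Sst-like subcluster of 69 nuclei from 22 libraries, led by Nos1 and Chodl, the genes of long-range projecting cells. It reached 338 CPM there (214 UMIs, 95% exact interval 294 to 387 CPM, counting error only), beside 363 CPM of Sst and no UMI of Pdyn, Crh or Cort. In Lamp5-like nuclei it was 47.5 CPM in the subcluster with Ndnf and Kit among its leading genes, genes of neurogliaform cells, and 15.3 CPM in the other. Sst itself ran from 121 to 363 CPM over the 7 Sst-like subclusters.

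Within Vip-like nuclei, Vip was 456 CPM in the subcluster with Chat and Slc5a7 (genes of acetylcholine synthesis and choline uptake) among its leaders and 30.1 CPM in the one led by Gm39185. Penk did not follow Vip: it was 44.3, 45.5 and 44.1 CPM in 3 of the 4 subclusters, the last being the low-Vip one, and 18.4 CPM in the remaining one, which has Tac2 among its leaders. Crh was highest in that remaining subcluster, at 22.9 CPM, and had a further source in a Sst-like subcluster with Spon1 among its leaders (10.6 CPM, 34 UMIs). Cck was 208 CPM in the Sncg-like subcluster with Frem1 and Slc17a8 among its leaders (Slc17a8 is a vesicular glutamate transporter of Cck basket cells), 30.7 CPM in the other Sncg-like one, and 153 CPM in an unnamed subcluster led by Cadps2. Tac1 was 37.1 CPM in 1 Pvalb-like subcluster of 785 nuclei, led by Myo1e and Ano1, and 0 to 19.4 CPM in the other 5.

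Pdyn split the Sst-like nuclei most sharply. A pair of subclusters, both with Lama4 and Hpse among their leading genes, held 104 CPM (264 nuclei) and 26.7 CPM (933 nuclei), and the other 5 held at most 2.50 CPM. Of the 435 Pdyn UMIs of Sst-like nuclei, 414 were in these 1197 nuclei and 21 in the other 1781.

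**Figure D2:**
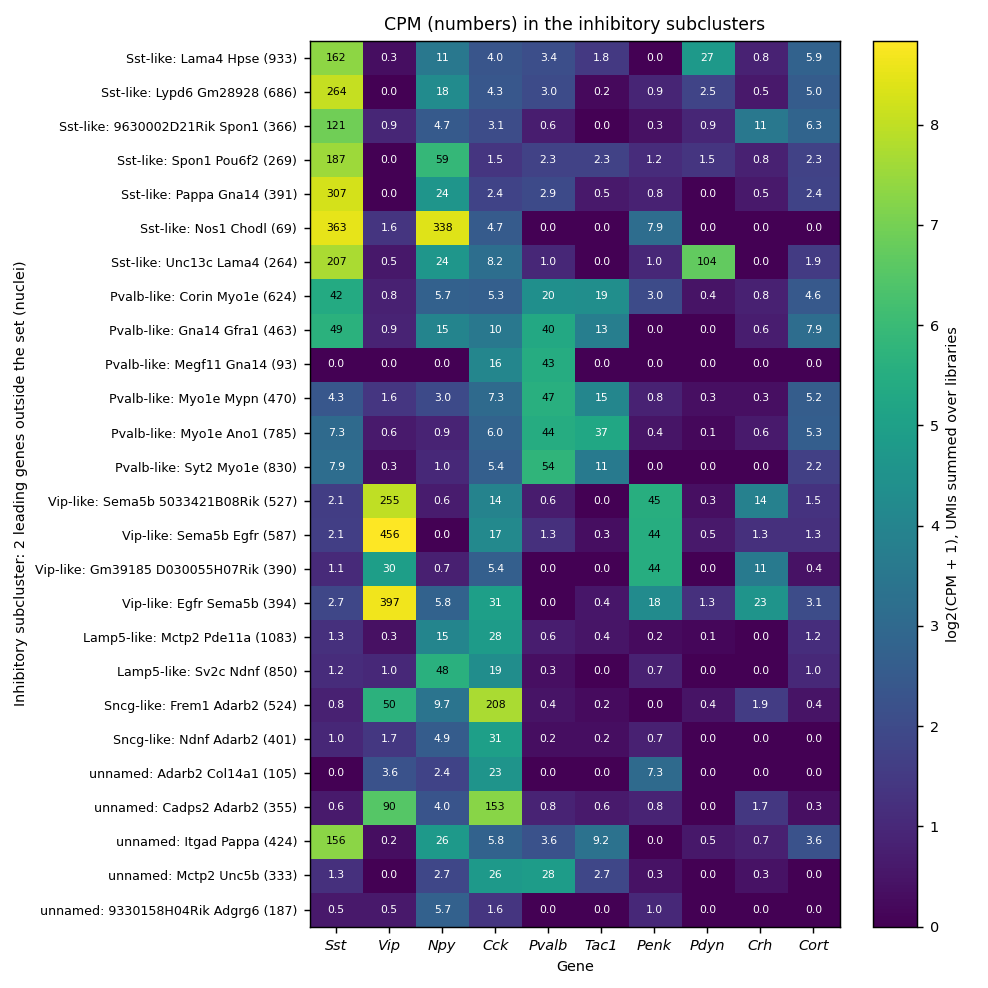
CPM of the 10 genes (columns) in the 26 inhibitory subclusters (rows, named by subtype and by 2 leading genes outside the set, with the number of nuclei in parentheses), from UMIs summed over libraries and coloured on a log2(CPM + 1) scale. Npy (338 CPM) and Sst (363 CPM) meet in the Nos1 Chodl row, and Pdyn is at 104 and 26.7 CPM in the rows headed Unc13c Lama4 and Lama4 Hpse and at most 2.50 CPM in the other Sst-like rows.

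Levels were then compared between genotypes in sums of UMIs per mouse, with edgeR's quasi-likelihood test in 12 sets of kept nuclei and Benjamini-Hochberg adjustment over all genes of each set. The tau contrast set P301S Cgas+/+ mice beside Cgas+/+ mice. The deletion contrast compared P301S Cgas-/- mice, and the heterozygous contrast P301S Cgas+/- mice, with the same P301S Cgas+/+ mice, which all 3 contrasts therefore share. Each of the 10 genes passed the low-count filter in at least 3 sets, which gave 49 tests per contrast. In the tau contrast 0 of 49 passed an adjusted p of 0.05 (edgeR), and 2 had an unadjusted p under 0.05, while DESeq2 called 0 of 48. Over all genes and sets the edgeR thresholds took 0.0126% and 3.8% of tests, and DESeq2 called 0.229% of the genes fitted, those it left without an adjusted p included. The median log2 fold change of the 49 was -0.25, and 15 were above 0. For the deletion contrast edgeR called 0 of 49, with 7 under an unadjusted 0.05, against 0.00223% and 6.37% of all tests, and DESeq2 called 2 of 46 (Pvalb in excitatory and Pdyn in inhibitory nuclei) against 0.106% of all genes fitted. The median here was 0.14, and 29 of 49 were above 0, but with the cortical-like share as a covariate it turned to -0.035, with 22 of 49 above 0. The heterozygous contrast gave 0 of 49 by edgeR and 4 under an unadjusted 0.05, against 0.00297% and 6.02% of all tests, and DESeq2 called 1 of 40 (Pdyn in inhibitory nuclei) against 0.166% of all genes fitted. Its median was 0.23, with 36 of 49 above 0 (0.12 and 33 of 49 with that covariate). The members' medians share the P301S Cgas+/+ mice. The 49 tests also overlap, since a class holds its subtypes and the sum over all kept nuclei holds the classes. Cck alone gave 11 of the 49. The counts above 0 or under an unadjusted 0.05 are therefore not counts of separate results. The median over all genes was within 0.03 of 0 in every set and contrast.

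**Figure D3:**
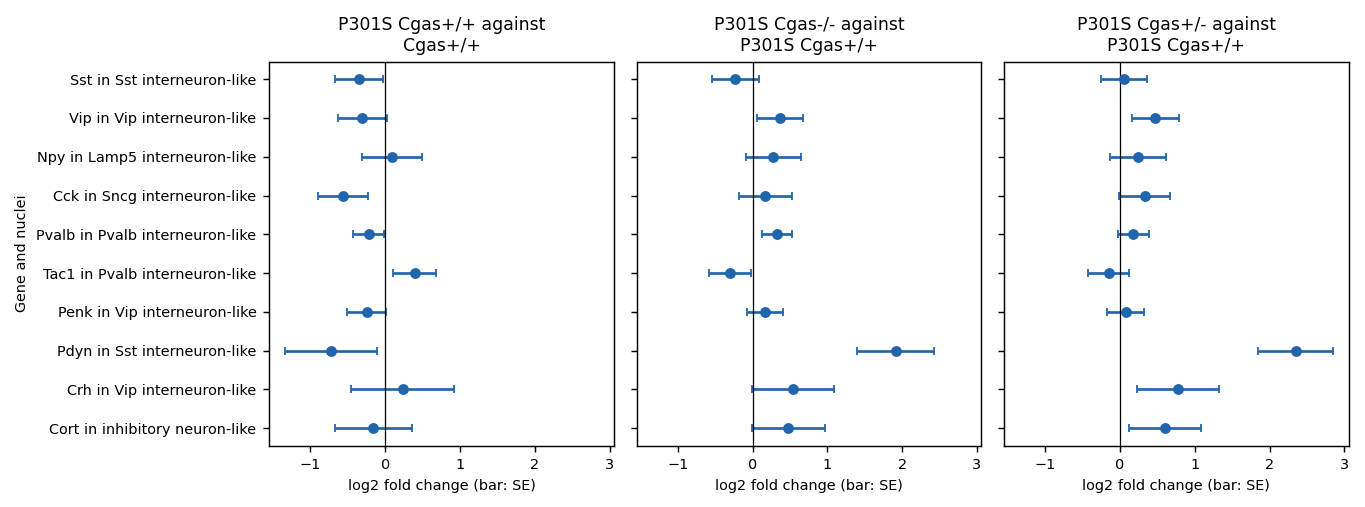
Log2 fold change with its SE (bars) from edgeR's fit for each gene in the interneuron subtype where its mean was highest among those tested (Cort in the inhibitory class), in the 3 contrasts on 1 shared axis. Pdyn in Sst-like nuclei lies at 1.91 and 2.35 in the deletion and heterozygous contrasts, with adjusted p of 0.268 and 0.229, and every other gene lies between -0.57 and 0.78.

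Sst in Sst-like nuclei was 403, 261, 192, 299 and 116 CPM in the 5 Cgas+/+ mice. Its lowest, median and highest values were 96.7, 225 and 246 CPM in P301S Cgas+/+, 112, 179 and 384 CPM in P301S Cgas+/-, and 123, 169 and 210.1 CPM in P301S Cgas-/-. These 4 groups overlapped throughout, with log2 fold changes of -0.35 ± 0.32 (SE), -0.23 ± 0.31 and 0.05 ± 0.31 in the tau, deletion and heterozygous contrasts (edgeR adjusted p = 1.0 each). The 2 Cgas-/- mice stood above every other mouse at 575 and 539.9 CPM, and the 2 Cgas+/- mice were at 172 and 189 CPM. Groups of 2 mice were not tested. The Cgas-/- mice also had the lowest mean cortical-like share of the 6 groups, and 9.52% and 8.45% of their Sst-like nuclei lay in the Lama4 and Hpse subclusters, where Sst was 162 and 207 CPM. Over all 27 mice, log2(CPM + 1) of Sst in Sst-like nuclei was not called against the cortical-like share (Pearson's r = -0.341, adjusted permutation p = 0.171; Spearman's rho = -0.357, adjusted p = 0.184). The r was -0.275 without the 2 mice farthest from the median share, -0.665 in libraries of file header version 3.0.2, which include all 4 mice of the groups of 2, 0.124 in those of version 3.1.0, and -0.067 after group means were removed. The part of the subclusters in these levels was not tested. In Pvalb-like nuclei Sst ranged from 6.06 to 16.7 CPM (median 10.3) in P301S Cgas-/- and from 0 to 49.5 CPM (median 19.1) in P301S Cgas+/+, and the log2 fold change of the deletion contrast, -1.24 ± 0.47, missed the threshold (edgeR adjusted p = 0.543). Those of the tau and heterozygous contrasts were -0.13 ± 0.43 and -0.83 ± 0.45 (edgeR adjusted p = 1.0 and 0.825).

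Vip in Vip-like nuclei ran from 147 over a median of 218 to 400.1 CPM in P301S Cgas+/+, from 178 over 391 to 429.9 CPM in P301S Cgas+/-, and from 169 over 298 to 483 CPM in P301S Cgas-/-. Cgas+/+ mice were at 494, 200.3, 317, 292 and 167 CPM, and the groups overlapped (log2 fold changes -0.31 ± 0.33, 0.37 ± 0.31 and 0.47 ± 0.31, edgeR adjusted p at least 0.993). Summed over the inhibitory class, where the number of Vip-like nuclei also counts, it averaged 49.3 ± 20.7 CPM in P301S Cgas-/-, 49.6 ± 19.6 CPM in P301S Cgas+/- and 31.5 ± 7.53 CPM in P301S Cgas+/+ (SD, n = 6 each). The log2 fold changes of 0.65 ± 0.29 and 0.64 ± 0.29 in the deletion and heterozygous contrasts did not pass (edgeR adjusted p = 0.829 and 0.788), nor did the -0.16 ± 0.31 of the tau contrast (adjusted p = 1.0). In a class sum alone, fewer nuclei of a type and less RNA per nucleus cannot be told apart, and the shares of Vip-like nuclei are given below.

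Npy in Lamp5-like nuclei overlapped between the 4 tested groups, with medians of 27.9 CPM in P301S Cgas+/+ (7.53 to 56.1), 35.1 CPM in P301S Cgas+/- (18.3 to 46.3) and 37.3 CPM in P301S Cgas-/- (13.8 to 45.9), and 31.8, 21.3, 25.7, 38.4 and 10.7 CPM in the Cgas+/+ mice. Its log2 fold changes were 0.09 ± 0.40, 0.28 ± 0.37 and 0.24 ± 0.38 in the 3 contrasts in the same order (edgeR adjusted p at least 0.983). Cck in Sncg-like nuclei was 285, 111, 166, 175 and 73.2 CPM in Cgas+/+ and had medians of 117 CPM in P301S Cgas+/+ (51.9 to 182) and 143 CPM in P301S Cgas+/- (90.6 to 200.3). The 5 P301S Cgas-/- mice with at least 10 such nuclei were at 138, 157, 76.8, 90.3 and 158 CPM. Its log2 fold changes were -0.57 ± 0.33, 0.17 ± 0.36 and 0.33 ± 0.35 in the same order (edgeR adjusted p = 1.0 each).

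Pvalb in Pvalb-like nuclei was 48.3, 43.7, 44.0, 45.8 and 36.0 CPM in Cgas+/+ and had medians of 40.4 CPM in P301S Cgas+/+ (22.2 to 44.9), 45.5 CPM in P301S Cgas+/- (28.7 to 58.9) and 53.7 CPM in P301S Cgas-/- (16.7 to 58.5). The groups overlapped, with log2 fold changes of -0.22 ± 0.21, 0.33 ± 0.20 and 0.18 ± 0.20 in the tau, deletion and heterozygous contrasts (edgeR adjusted p at least 0.871). Tac1 in the same nuclei had medians of 21.5 CPM in P301S Cgas+/+ (13.6 to 26.7), 19.3 CPM in P301S Cgas+/- (5.77 to 31.5) and 19.0 CPM in P301S Cgas-/- (6.26 to 21.8), against 25.4, 17.5, 12.2, 19.3 and 10.4 CPM in Cgas+/+. All 4 groups overlapped (log2 fold changes 0.40 ± 0.29, -0.30 ± 0.28 and -0.15 ± 0.27, edgeR adjusted p at least 0.971). Summed over the inhibitory class, Pvalb averaged 15.1 CPM in P301S Cgas-/-, 14.6 CPM in P301S Cgas+/-, 10.2 CPM in P301S Cgas+/+ and 13.9 CPM in Cgas+/+. The log2 fold changes were 0.538 ± 0.253 in the deletion contrast (edgeR unadjusted value 0.0438, adjusted p = 0.842) and 0.457 ± 0.257 in the heterozygous contrast (adjusted p = 0.903). The tau contrast gave -0.455 ± 0.264 (edgeR adjusted p = 0.9997).

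Penk in Vip-like nuclei kept within 17.2 to 61.3 CPM in all 23 tested mice, and its group means were 42.8 ± 7.92 in Cgas+/+, 37.1 ± 4.99 in P301S Cgas+/+, 38.5 ± 14.0 in P301S Cgas+/- and 40.5 ± 17.2 CPM in P301S Cgas-/-. The log2 fold changes were -0.25 ± 0.27, 0.16 ± 0.24 and 0.074 ± 0.25 in the tau, deletion and heterozygous contrasts (edgeR adjusted p at least 0.999). Crh in Vip-like nuclei was 2.63, 4.36, 6.05, 8.91 and 13.9 CPM in Cgas+/+, from 16 UMIs in all, and P301S Cgas+/+ mice gave 22 UMIs. It had medians of 5.51 CPM in P301S Cgas+/+ (1.65 to 49.0), 15.3 CPM in P301S Cgas+/- (8.96 to 28.9) and 14.3 CPM in P301S Cgas-/- (3.01 to 23.01), and the 49.0 CPM came from replicate 3, with 24 Vip-like nuclei, without which the highest was 13.3 CPM. Its log2 fold changes of 0.23 ± 0.69, 0.54 ± 0.55 and 0.78 ± 0.55 in the same order did not pass (edgeR adjusted p at least 0.993). Cort in inhibitory nuclei ranged from 0 to 7.91 CPM over the 23 mice with log2 fold changes of -0.16 ± 0.52, 0.48 ± 0.49 and 0.60 ± 0.48 (edgeR adjusted p at least 0.972).

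**Figure D4:**
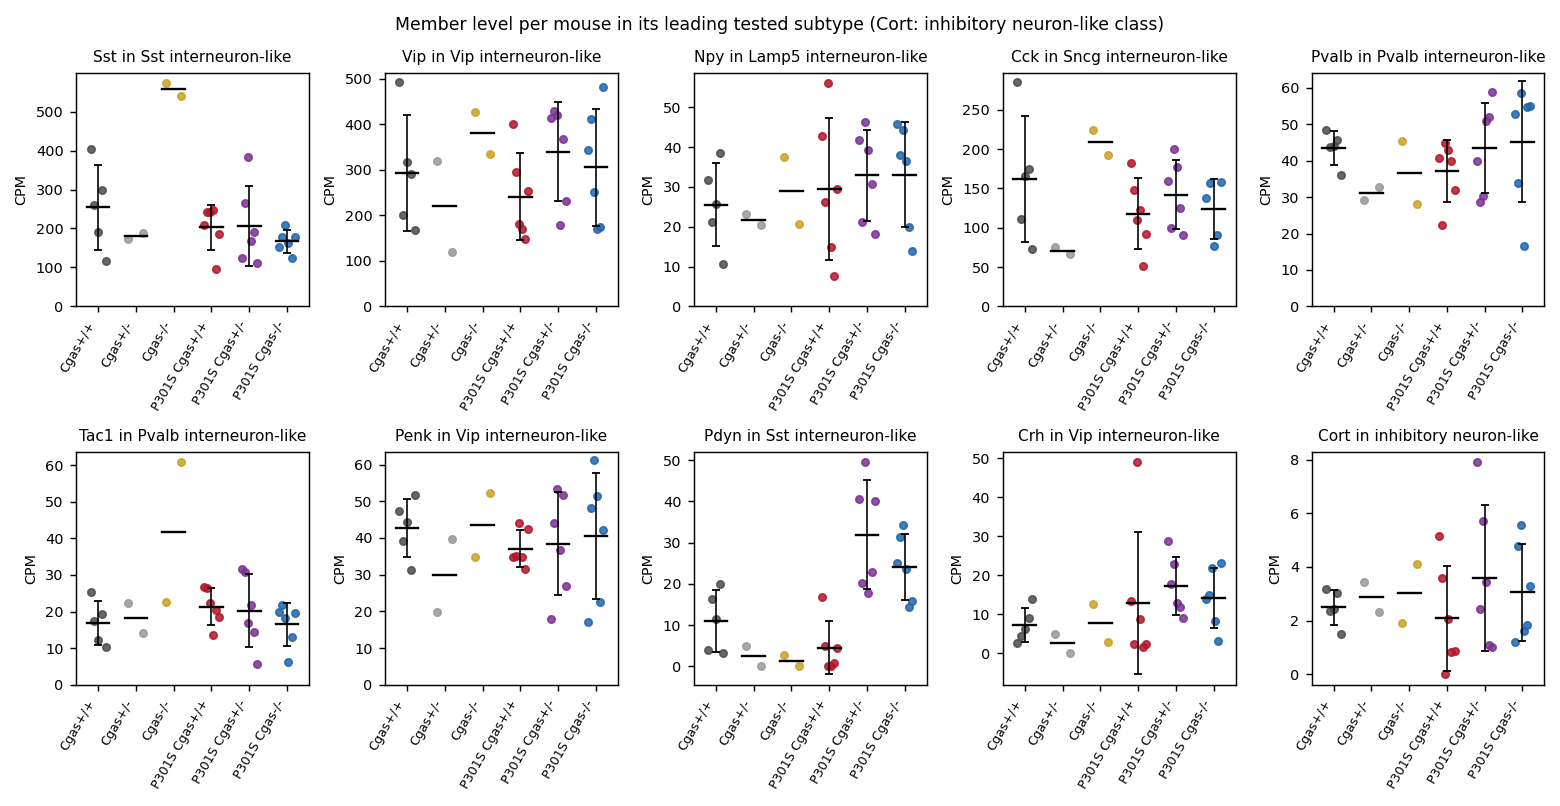
CPM per mouse (points) of each gene in the subtype where its mean was highest among those tested, by genotype group, with the mean (line) and SD (bars, groups of 5 or 6 mice). Pdyn in Sst-like nuclei is at 17.7 to 49.5 CPM in P301S Cgas+/- and at 0 to 16.8 CPM in P301S Cgas+/+, and Sst in Sst-like nuclei is at 539.9 and 575 CPM in the Cgas-/- mice.

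Among the 10 genes, each in its leading tested subtype (Cort in the inhibitory class), Pdyn in Sst-like nuclei had the log2 fold changes farthest from 0. P301S Cgas+/+ mice were at 0, 0, 0.841, 4.48, 4.94 and 16.8 CPM, P301S Cgas+/- mice at 17.7, 20.3, 22.9, 40.2, 40.7 and 49.5 CPM, and P301S Cgas-/- mice at 14.4, 15.9, 23.5, 25.1, 31.2 and 34.4 CPM. Every P301S Cgas+/- mouse and 4 of 6 P301S Cgas-/- mice lay above the highest P301S Cgas+/+ mouse. Without the transgene, Cgas+/+ mice were at 3.91, 16.3, 11.5, 20.03 and 3.15 CPM, Cgas+/- mice at 4.87 and 0 CPM and Cgas-/- mice at 2.64 and 0 CPM. A count of 0 in the P301S Cgas+/+ replicate with 10 Sst-like nuclei allows up to 31.6 CPM, and in the other one, with 40 nuclei, up to 6.84 CPM (3 counts, counting error only).

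Mean Pdyn in Sst-like nuclei was 4.51 ± 6.42 CPM (SD, n = 6) in P301S Cgas+/+, 31.9 ± 13.2 CPM in P301S Cgas+/-, 24.1 ± 7.96 CPM in P301S Cgas-/- and 11.0 ± 7.45 CPM (n = 5) in Cgas+/+. By edgeR's quasi-likelihood fit the deletion contrast gave a log2 fold change of 1.91 ± 0.52 (SE, adjusted p = 0.268) and the heterozygous contrast one of 2.35 ± 0.50 (adjusted p = 0.229), so neither passed, although their unadjusted values were 0.00136 and 0.000126. The tau contrast gave -0.72 ± 0.62 (edgeR adjusted p = 1.0), and -1.75 to -0.30 with 1 mouse left out, the lowest without replicate 1 of P301S Cgas+/+ (adjusted p = 1.0). The call turned on 1 mouse and on the filter. The mouse, replicate 1 of P301S Cgas+/+, had the highest cortical-like share of its group, 70.4%, with the next at 34.1%. Without replicate 1 of P301S Cgas+/+, the mouse at 16.8 CPM, the fold changes were 2.94 (edgeR adjusted p = 0.0415) and 3.38 (adjusted p = 0.0106), and with no low-count filter they were 1.92 and 2.34 (adjusted p = 0.0152 and 0.00137). That unfiltered fit called 93 and 63 of 21679 genes in Sst-like nuclei, against 0 of 9091 in both contrasts with the filter. Leaving out the 2 libraries that stood apart gave 1.87 and 2.23 (edgeR adjusted p = 0.298 and 0.529). DESeq2 called 31 and 18 of 9091 genes in Sst-like nuclei in the deletion and heterozygous contrasts, and Pdyn was not among them. Within libraries of either file header version (3.0.2 or 3.1.0) the order was the same, with P301S Cgas+/+ mice at a mean of 10.9 CPM, P301S Cgas+/- at 30.5 CPM and P301S Cgas-/- at 28.1 CPM in the first (2 mice each), and 1.33, 32.6 and 22.1 CPM in the second (4 each).

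Summed over all inhibitory nuclei, Pdyn was 1.23 ± 1.82 CPM in P301S Cgas+/+, 8.79 ± 3.68 CPM in P301S Cgas+/- and 6.77 ± 2.88 CPM in P301S Cgas-/- (SD, n = 6 each). The log2 fold changes were 2.21 ± 0.56 and 2.60 ± 0.55 (edgeR adjusted p = 0.462 and 0.2499), while DESeq2 gave 2.39 and 2.76 (adjusted p = 0.0242 and 0.00275). Without replicate 1 of P301S Cgas+/+ they were 3.35, which did not pass, and 3.74, which did (edgeR adjusted p = 0.0160). The tau contrast there gave -0.85 ± 0.65, and -1.97 without that mouse (edgeR adjusted p = 1.0 each). Dentate granule-like nuclei, the larger source, did not move the same way: medians were 5.88 CPM in P301S Cgas+/+ (2.78 to 11.2), 5.38 CPM in P301S Cgas+/- (0 to 6.73) and 2.78 CPM in P301S Cgas-/- (0 to 7.36), with log2 fold changes of -0.41 ± 0.31 and -0.10 ± 0.29 (edgeR adjusted p = 1.0 each). The 2 mice at 0 had 35 and 17 dentate granule-like nuclei, where a count of 0 of Pdyn allows up to 12.4 and 17.7 CPM. The difference between the nuclei types was not tested.

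The makeup of the Sst-like nuclei moved with these levels. The Lama4 and Hpse subclusters, where Pdyn lies, were 29.1% of Sst-like nuclei in P301S Cgas+/+, 50.6% in P301S Cgas+/-, 49.7% in P301S Cgas-/-, 39.4% in Cgas+/+, 23.4% in Cgas+/- and 8.99% in Cgas-/-. Within those subclusters Pdyn was 11.3 to 35.2 CPM (mean 18.5) in the 4 P301S Cgas+/+ mice with at least 10 such nuclei, 37.8 to 117 CPM (mean 65.1) in the 6 P301S Cgas+/- mice, 36.8 to 58.2 CPM (mean 47.5) in the 6 P301S Cgas-/- mice and 12.4 to 49.4 CPM (mean 26.2) in the 5 Cgas+/+ mice. The levels of the 4 P301S Cgas+/+ mice rest on 21, 5, 3 and 1 UMIs of Pdyn in 89, 48, 29 and 12 nuclei. The highest of them, 35.2 CPM, has a 95% exact Poisson interval of 21.8 to 53.8 CPM, and the lowest of the other 2 groups, 36.8 CPM from 25 UMIs, one of 23.8 to 54.3 CPM. Counting error therefore does not separate the nearest mice. The pair of subclusters, pooled here, differ in Pdyn as given above, and their mix in each group was not compared. A change of mix and a change of level cannot be told apart in these values. This comparison was chosen after the levels were seen and was not tested.

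Pdyn also followed the tissue makeup of the library. Over the 27 mice, log2(CPM + 1) of Pdyn in Sst-like nuclei correlated with the cortical-like share of excitatory nuclei (Pearson's r = 0.681, permutation p = 7e-05, adjusted p = 0.000665; Spearman's rho = 0.702, adjusted permutation p = 0.000665). Without the 2 mice farthest from the median share r was 0.650, it was 0.721 in the 12 libraries of header version 3.0.2 and 0.659 in the 15 of version 3.1.0, and it was 0.458 after group means were removed. Of 19 such relations, the others with an adjusted p under 0.05 for r were Pdyn in the inhibitory class (r = 0.736, adjusted permutation p = 0.00019, rho = 0.776, adjusted p = 0.00019, r = 0.596 within groups), Pvalb in that class (r = 0.550, adjusted permutation p = 0.0192, rho = 0.650, adjusted p = 0.00203, r = 0.389 within groups) and Cort in that class (r = 0.503, adjusted permutation p = 0.0362, rho = 0.449, adjusted p = 0.0613). Without the 2 farthest mice r was 0.681, 0.656 and 0.349 for these, in the same order. In libraries of header versions 3.0.2 and 3.1.0 it was 0.816 and 0.666 for Pdyn, 0.479 and 0.654 for Pvalb, and 0.694 and 0.528 for Cort. Crh passed by rho alone, in the inhibitory class (r = 0.437, adjusted permutation p = 0.0633, rho = 0.514, adjusted p = 0.0278) and in Vip-like nuclei (r = 0.460, adjusted permutation p = 0.0519, rho = 0.510, adjusted p = 0.0278). Its r was 0.345 and 0.387 without the 2 farthest mice, 0.747 and 0.622 in version 3.0.2, 0.180 and 0.239 in version 3.1.0, and 0.323 and 0.298 within groups. With the cortical-like share as a covariate, the fold changes of Pdyn in Sst-like nuclei were 1.63 ± 0.53 and 2.17 ± 0.49 (edgeR adjusted p = 1.0 and 0.551). The shares of the P301S groups overlap but their means differ, so beyond this covariate genotype and tissue makeup cannot be told apart.

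**Figure D5:**
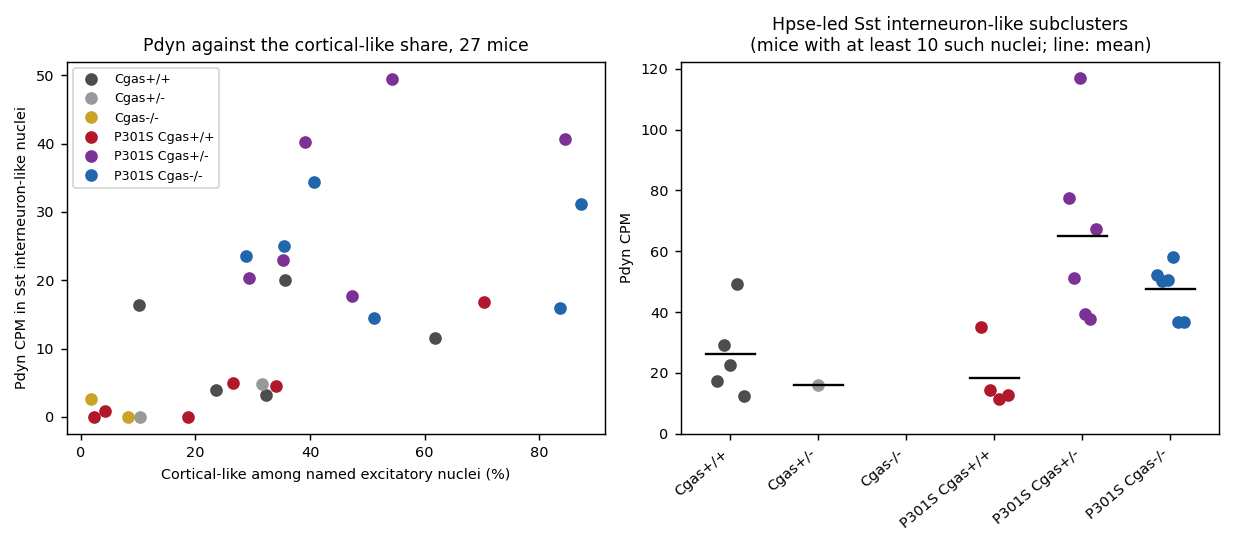
Left, Pdyn CPM in Sst-like nuclei of each of the 27 mice (points, coloured by group) against the percent of cortical-like among named excitatory nuclei. Right, Pdyn CPM per mouse in the Lama4 and Hpse subclusters of the Sst-like nuclei, pooled (mice with at least 10 such nuclei, line at the mean). Pdyn is higher at higher cortical-like shares (r = 0.681), and on the right P301S Cgas+/+ mice lie at 11.3 to 35.2 CPM and P301S Cgas+/- and P301S Cgas-/- mice at 36.8 to 117 CPM.

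In excitatory nuclei Cck and Pvalb had unadjusted p under 0.05. Cck in dentate granule-like nuclei was 16.7, 8.66, 15.4, 20.9 and 12.6 CPM in Cgas+/+ and 4.45 to 12.1 CPM (median 9.99) in P301S Cgas+/+, with an edgeR log2 fold change of -0.65 ± 0.23 (unadjusted value 0.00905, adjusted p = 1.0). These levels are near the 13.0 CPM of oligodendrocyte-like nuclei. In cortical deep layer-like nuclei Cck averaged 13.4 ± 4.19 CPM in Cgas+/+ (n = 5) and 7.09 ± 3.86 CPM in P301S Cgas+/+ (n = 6), with an edgeR log2 fold change of -0.68 ± 0.32 (unadjusted value 0.0412, adjusted p = 1.0). These levels too are near or under the 13.0 CPM of oligodendrocyte-like nuclei. How much of the Cck in either set is free RNA was not tested. In CA1-like nuclei, where Cck was higher, the tau contrast gave -0.21 ± 0.24 (edgeR adjusted p = 1.0). Pvalb in excitatory nuclei averaged 0.833 ± 0.595 CPM in P301S Cgas-/-, 0.571 ± 0.339 CPM in P301S Cgas+/- and 0.225 ± 0.136 CPM in P301S Cgas+/+ (SD, n = 6 each), around the 0.424 CPM of oligodendrocyte-like nuclei. It gave 298 UMIs in 74900 excitatory nuclei and 43 UMIs in 45763 oligodendrocyte-like nuclei, and the part of free RNA was not tested. Its log2 fold change in the deletion contrast was 1.86 ± 0.47 (edgeR adjusted p = 0.251; DESeq2 adjusted p = 0.0490), and it was the same with the cortical-like share as a covariate (1.86 ± 0.51, edgeR adjusted p = 0.929). In the heterozygous contrast it was 1.52 ± 0.48 (edgeR adjusted p = 0.407).

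The shares of the interneuron subtypes among inhibitory nuclei were compared as well, since they set class sums. None of 15 comparisons passed an adjusted p of 0.05 in exact permutation tests over mice. The lowest were those of Sncg-like nuclei, the Cck-rich subtype, at 9.43% ± 4.18 in P301S Cgas+/+ against 4.77% ± 1.64 in P301S Cgas-/- and 4.77% ± 1.37 in P301S Cgas+/- (SD, n = 6 each, exact two-sided permutation p = 0.0303 and 0.0368, adjusted p = 0.276 each). As shares of all named neurons the same 2 comparisons gave exact permutation p = 0.115 and 0.0563 (adjusted p = 0.352 each). Without the transgene, Sncg-like nuclei were 15.4% of inhibitory nuclei in Cgas-/-, where the cortical-like share averaged 5.08%. They were 9.79% in Cgas+/- and 7.57% in Cgas+/+, at mean cortical-like shares of 21.0% and 32.7%. In P301S Cgas+/+, P301S Cgas-/- and P301S Cgas+/-, Sst-like nuclei were 19.99% ± 8.12, 26.4% ± 6.47 and 26.8% ± 2.23 of inhibitory nuclei. Vip-like nuclei were 15.5% ± 3.63, 19.5% ± 4.81 and 16.6% ± 3.72 in the same order.

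Around the peptides, 4 lists of genes were counted. They held 21 receptors, 14 genes of peptide processing and dense-core vesicles, 11 other neuropeptide genes and 17 genes of GABAergic identity. The binding protein Crhbp is counted in both the receptor list and the list of other neuropeptide genes. In inhibitory nuclei 14, 14, 5 and 17 genes of the 4 lists passed the low-count filter, and edgeR and DESeq2 called 0 in each of the 3 contrasts. The counts under an unadjusted p of 0.05 were 0, 0, 0 and 0 in the tau contrast, 2, 2, 1 and 2 in the deletion contrast and 3, 0, 2 and 1 in the heterozygous contrast. Over all 12675 genes of that class the same threshold took 2.87%, 5.81% and 6.11% in the 3 contrasts. The lists' medians lay between -0.17 and 0.22 on the log2 scale, against medians within 0.01 of 0 over all genes of that class. The receptors with the highest CPM there were Oprd1 and Oprm1, the delta and mu opioid receptors that bind enkephalins, at 102 and 75.9 CPM. Oprm1 had a log2 fold change of -0.63 ± 0.20 in the deletion contrast and -0.57 ± 0.20 in the heterozygous contrast (edgeR adjusted p = 0.646 and 0.586), and Oprd1 one of 0.03 ± 0.17 and -0.03 ± 0.17 (adjusted p = 1.0 each). Among processing genes Cadps, Pam and Cadps2 led, at 1791, 1019 and 289.8 CPM, and Pam, which amidates peptides such as Vip, Npy and Cck, moved by 0.07 ± 0.09 in the deletion contrast (edgeR adjusted p = 0.986). Tac2, a tachykinin gene of Vip-like cells, had a log2 fold change of 0.82 ± 0.28 in the deletion contrast (edgeR adjusted p = 0.646). Over all 12 sets the lowest adjusted p was that of Crhbp, which binds and buffers the Crh peptide, in Pvalb-like nuclei (log2 fold change -0.76 ± 0.18 in the deletion contrast, edgeR adjusted p = 0.113; DESeq2 adjusted p = 0.0237), the only gene of the 4 lists that DESeq2 called in any set (in both the deletion and the heterozygous contrast).

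For each of the 10 genes the 3 genes with the most similar profile were found by Pearson's r of mean log2(CPM + 1) over 22 sets of nuclei, among 15988 genes, as a description. The sets share libraries, and r carries no test. Sst was most like Crhbp (0.923), Vip like Tac2 (0.968) and Htr3a (0.928), which encodes the serotonin-gated channel of its interneuron branch, and Tac1 like Cartpt (0.958), another striatal and interneuron peptide gene. Crh was most like Grpr (0.926) and Chat (0.881), Cort like Rbp4 (0.952) and Crhbp (0.862), and Npy like Mageb18 (0.923). Htr3a and Chat were among the markers that named Vip-like nuclei, and Rbp4 among those that named Sst-like nuclei. The r of these 3 genes is therefore in part built in. The closest genes were less alike for Penk (Gm12930, 0.844), Pvalb (Akr1c18, 0.836), Pdyn (Gm40055, 0.811) and Cck (Zbtb16, 0.722).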

How the data were processed

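Nuclei were sorted by DAPI from frozen hippocampi and sequenced with 10x 3′ v3 chemistry. The authors aligned reads to mm10 with introns counted and deposited counts, whole-number UMIs per gene and barcode. The submitters' notes name Cell Ranger 3.1.0, while the file headers give 3.0.2 in 12 libraries (all male) and 3.1.0 in 15. The libraries of the groups of 2 mice are all of version 3.0.2.

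Barcodes outside 200 to 4000 genes, or above 5% mitochondrial UMIs, were dropped (0, 20030 and 630 fell outside these limits). Barcodes over 4000 genes held 22.8% of the UMIs of the 10 genes, 6.33% to 48.1% per library. Scrublet scores removed 16429 doublets (0.8% per 1000 barcodes). Nuclei were clustered with scanpy 1.11.5 (2000 variable genes, 30 principal components, 15 neighbours) and named from marker lists, both without the 10 genes, so names are rebuilt and can differ from the study's. Unnamed clusters held 16609 nuclei, 8.11%, and 1404 of the inhibitory nuclei, 11.3%.

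UMIs were summed per mouse and set (at least 10 nuclei) and fitted with edgeR 4.0.16 (quasi-likelihood, TMM, low-count filter, sex as covariate) over the 23 mice of the 4 larger groups, with Benjamini-Hochberg adjustment. Sums per mouse ran from 95036 to 1693110 UMIs in Sst-like nuclei. Orders of level were tested by sign flips of log2(CPM + 1) over mice with 100000 resamples and adjusted over 190 pairs. Intervals cover counting error at 95%. DESeq2 1.42.0, no filter, no sex term, a header version block and leaving out each mouse were tried. The tests were checked on simulated counts. The 10 genes, the lists and the rule for named genes (each of the 10, the 3 highest of each list, and the 3 most similar in profile) were chosen with earlier results of these data known.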

Additional observations from a re-analysis of the deposited data

Results flagged for a closer look

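Among the 10 genes in their leading subtypes, 40 groups of mice were checked for a mouse whose gap to the nearest other mouse was large for the range of its group, and 2 were found. Chance gives such a gap in about 1 group in 20. Pdyn in Sst-like nuclei was 16.8 CPM in replicate 1 of P301S Cgas+/+ (22 UMIs in 177 nuclei), and the other 5 mice were at 0 to 4.94 CPM. Crh in Vip-like nuclei was 49.0 CPM in replicate 3 of P301S Cgas+/+ (10 UMIs in 24 nuclei), the library with the most nuclei in unnamed clusters, and the other 5 mice were at 1.65 to 13.3 CPM. The first is the mouse without which Pdyn in Sst-like nuclei passed the adjusted threshold in the deletion and heterozygous contrasts. Its library had a cortical-like share of 70.4%, the highest of its group, with the next at 34.1%. Of its Sst-like nuclei, 50.3% lay in the Lama4 and Hpse subclusters. The part of tissue makeup in these calls was not tested.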

How the results depend on the processing

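Of the 10 genes' tests, the tau contrast kept 0 calls under every setting tried. In the deletion contrast DESeq2 called 2 of 46 and the fit with no low-count filter 1 of 118, and in the heterozygous contrast they called 1 of 40 and 1 of 118. Leaving out 1 mouse at a time gave 0 to 0 calls in the tau, 0 to 1 in the deletion and 0 to 2 in the heterozygous contrast, and 0 to 0 among subtype shares. With the cortical-like share as a covariate, a setting chosen after seeing the data, the sign turned for Pdyn in dentate granule-like nuclei (tau -0.031, heterozygous 0.047) and, in the deletion contrast, for Vip in Vip-like (-0.012), Cck in Sncg-like (-0.18) and Cort in inhibitory nuclei (-0.11). Leaving out the 2 libraries that stood apart, also chosen after seeing the data, turned Npy in Lamp5-like nuclei in the tau contrast (-0.14). Signs that turned when 1 mouse was left out belonged, in the tau contrast, to Npy in Lamp5-like (-0.17 to 0.37), Cort in inhibitory (-0.56 to 0.050), Pdyn in dentate granule-like (-0.060 to 0.24) and Penk in CA1-like nuclei (-0.084 to 0.59). In the deletion contrast they belonged to Cck in Sncg-like (-0.045 to 0.35) and in dentate granule-like nuclei (-0.29 to 0.080), and in the heterozygous contrast to Sst in Sst-like (-0.23 to 0.17), Npy in Lamp5-like (-0.012 to 0.48), Tac1 in Pvalb-like (-0.31 to 0.055) and Penk in Vip-like nuclei (-0.074 to 0.19). That covariate also turned the median of the 49 fold changes in the deletion contrast, from 0.14 to -0.035. None of the genes whose sign turned passed the threshold in those sets under any setting, and the cause was not tested. Pdyn in Sst-like nuclei kept its sign throughout (1.60 to 2.94 and 2.04 to 3.38 with 1 mouse left out). Calls over all genes and 12 sets in the tau, deletion and heterozygous contrasts were 17, 3 and 4, against 308, 142 and 223 by DESeq2, 33, 209 and 194 with no filter, 18, 0 and 1 with the cortical-like share, and 15, 0 and 1 with no sex term. They ran from 15 to 154, 0 to 41 and 0 to 102 with 1 mouse left out. No paired analysis was possible because replicate numbers were given in accession order and pair no samples. Depth limits low values: a count of 0 in the library with 10 Sst-like nuclei allows up to 31.6 CPM.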
